A study of Homo sapiens with 4 samples.

Results

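ATAC-seq peaks of RKO cells, an established line from a human colon cancer, were used to describe the regions that were open in the control and kept a peak in a single library after CHD7 knockdown. In ATAC-seq the Tn5 transposase inserts adapters into DNA that is not packed away, so that sequenced fragments pile up where chromatin is open, and a peak is a stretch where the pileup exceeds its local background. CHD7 is an ATP-dependent chromatin remodeller of the chromodomain helicase DNA-binding family, which uses the energy of ATP to move nucleosomes along DNA and is known for acting at enhancers and promoters. Remodellers of this kind can expose or cover a stretch of DNA without changing its sequence.

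The regions were chosen by the calls in the peak lists. Peaks of the 4 lists on chromosomes 1 to 22 and X that shared at least 1 bp were merged, which gave 20450 regions. A region was selected when it held a peak in both control lists and in exactly 1 of the 2 shCHD7-2 lists. This left 2215 regions, here called partly retained. They were 25.9% of the 8557 regions called in both control lists. The other control regions were 3395 fully retained regions, called in all 4 lists, and 2947 unretained regions, called in neither shCHD7-2 list. The names refer to calls alone, since a region that is absent from a list may still be accessible.

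RKO cells were infected with lentivirus expressing either a control hairpin or shCHD7-2, a short hairpin RNA directed at CHD7, and lines with stable expression were obtained. Both groups therefore carried a lentivirus and differed, per the labels, in the hairpin. Each group held 2 libraries, made from isolated nuclei of these lines, and the knockdown group rested on this 1 hairpin. Whether the replicates were separate cultures, and whether a line was a clone or a pool, is not given in the labels, so the spread between replicates may be technical. CHD7 itself was not measured in these lists, and markers of colon cells were not checked here because no gene annotation of the hg19 build was at hand.

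The lists gave no read totals. The number of reads at the summit and the local background were solved from each peak's fold enrichment and p value. A fit was found for 100% of peaks, but it need not be the only one. At partly retained regions the lowest solved background was 0.222 reads in both control lists, below the background seen most often there. Their 10th percentiles were 0.98 and 0.88 reads in control replicates 1 and 2, so this concerned few of these regions. The background seen most often in a list was 0.916 and 0.843 reads in control replicates 1 and 2, and 1.40 and 1.62 reads in shCHD7-2 replicates 1 and 2. The control lists held 13257 and 12092 peaks, and the shCHD7-2 lists 7199 and 8715. The lowest summit that was called stood at 6 reads in each control list and at 8 reads in each shCHD7-2 list. Depth and group therefore moved together, and their parts in the calls cannot be told apart. No scale common to the lists was established, so classes of regions were compared within a list. Values of a region in several lists are set side by side as deposited, and a difference between lists in reads or width cannot be told apart from their depth and call limits. No test was run, because the regions had been chosen by the calls.

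Of the partly retained regions, 837 had their peak in shCHD7-2 replicate 1 and 1378 in shCHD7-2 replicate 2. These were 9.78% and 16.1% of the control regions. Replicate 2 thus held 62.2% of the partly retained regions (95% Wilson interval 60.2 to 64.2%, counting error only), beside 54.8% of the peaks in the shCHD7-2 lists together. With all lists cut to the length of the shortest, the shCHD7-2 lists held 7199 peaks each, so the 54.8% no longer applied. Replicate 2 then held 713 partly retained regions, or 54.1% of them. Of the 5610 control regions with a peak in either shCHD7-2 list, 39.5% were found in only 1 of them. The mirror case, a peak in both shCHD7-2 lists and in exactly 1 control list, was met in 493 regions. Beside them stood the 3395 regions called in all 4 lists. The control lists were longer, with 13257 and 12092 peaks against 7199 and 8715, so this count cannot be set directly against the 2215.

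The partly retained regions held middle places in the control lists. Each peak was given a percentile rank within its list by its −log10 p value, with 100 for the highest. The mean of the control ranks had a median of 60.5 in the partly retained regions, beside 80.4 in the fully retained and 45.1 in the unretained regions. The middle 50% of the partly retained regions lay between 42.7 and 74.4, and their whole range ran from 2.45 to 99.4. The classes therefore overlapped along nearly the whole list and differed in where most of their regions lay. Regions that stayed in shCHD7-2 replicate 1 had a median control rank of 57.9, and those that stayed in replicate 2 one of 61.9.

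When the control regions were cut into 10 strata of equal size by mean control rank, the partly retained share rose and then fell along the ranks. In the lowest stratum it was 20.3% (174 of 856 regions). It reached 34.9% in the seventh stratum (298 of 855). In the highest stratum it was 7.13% (61 of 855). The unretained share fell through the same strata from 69.9% to 1.40%, and the fully retained share rose from 9.81% to 91.5%. In the seventh stratum, where the partly retained share was highest, 41.4% of the regions were fully retained and 23.7% unretained. The shares of a stratum make up a whole, so they do not vary independently. Among the control regions with any shCHD7-2 peak, however, the partly retained share was 67.4% in the lowest stratum and 7.24% in the highest. The share of replicate 2 among the partly retained regions lay between 55.1% and 68.9% in the 10 strata, so it was above 50% in each of them.

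**Figure D1:**
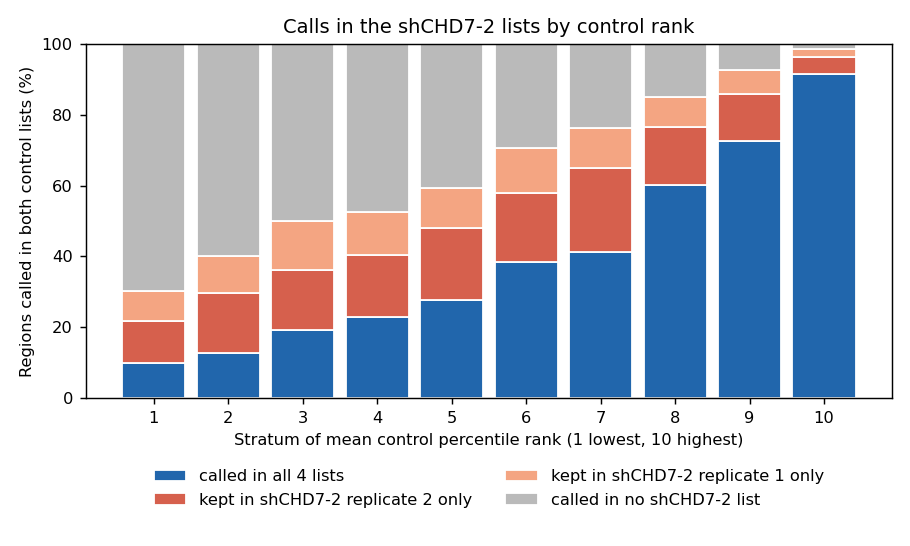
Share of the regions called in both control lists (y axis, percent) in each of 10 strata of mean control percentile rank (x axis, 1 lowest to 10 highest), split by calls in the shCHD7-2 lists. The red and orange bands, which are the partly retained regions, together grow from 20.3% in the lowest stratum to 34.9% in the seventh and shrink to 7.13% in the highest.

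The shCHD7-2 lists shared calls within each stratum as well as over all strata. Over all control regions, shCHD7-2 replicate 2 held a peak in 80.2% of the regions called in replicate 1 and in 31.9% of those not called there. In the other direction, replicate 1 held a peak in 71.1% of the regions called in replicate 2 and in 22.1% of those not called there. Within the lowest stratum the same pairs of values were 54.2% and 14.7% for replicate 2, and 44.9% and 10.6% for replicate 1. Within the highest stratum they were 97.6% and 77.8% for replicate 2, and 94.9% and 61.3% for replicate 1. Within each of the 10 strata a region called in one shCHD7-2 list was thus more often called in the other. Rank still varied within a stratum, from 0.744 to 27.2 in the lowest, and its part in this sharing was not tested. The partly retained regions are the disagreement between these lists, and in the highest stratum they came to 19 regions for replicate 1 and 42 for replicate 2.

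**Figure D2:**
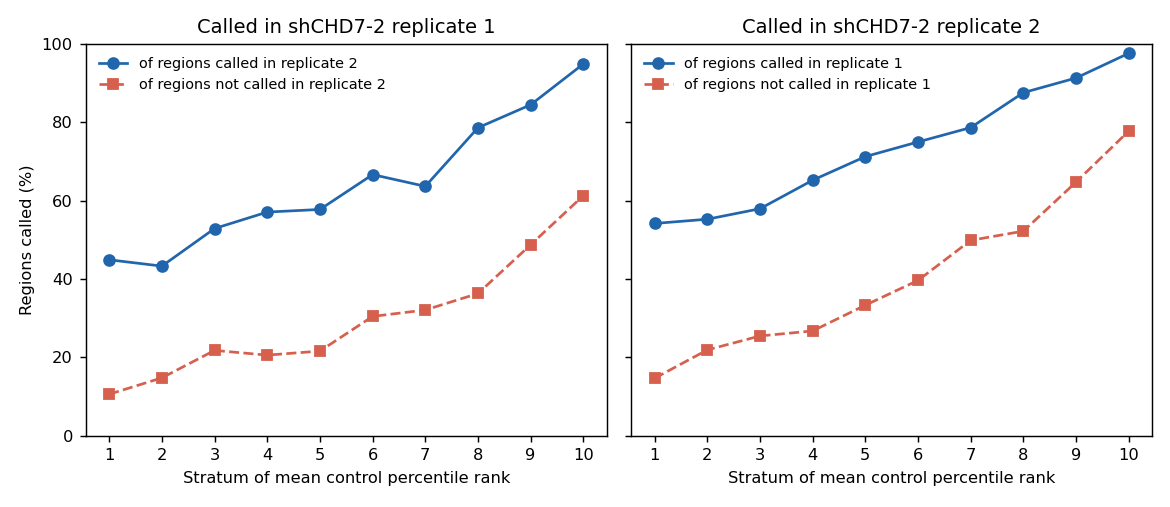
Percent of control regions with a peak in shCHD7-2 replicate 1 (left) or replicate 2 (right), by stratum of mean control percentile rank (x axis), for regions called (blue circles) or not called (red squares) in the other shCHD7-2 list. In each stratum the blue points lie above the red ones, and in the left panel they stand at 44.9% against 10.6% in stratum 1 and at 94.9% against 61.3% in stratum 10.

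Summits of the partly retained regions were lower than those of the fully retained regions in each of the 4 lists. The median summit pileup was 16 and 15 reads in control replicates 1 and 2, against 23 and 21 reads in the fully retained regions. In the unretained regions it was 13 and 12 reads. In the shCHD7-2 list that held the peak, it was 12 reads in replicate 1 and 13 reads in replicate 2, against 16 and 18 reads in the fully retained regions. The partly retained median was thus 0.696 and 0.714 of the fully retained one in the control lists, and 0.750 and 0.722 of it in the shCHD7-2 lists. Partly retained regions thus lay below fully retained ones in all 4 lists, and above unretained ones in the control lists, the only lists that hold the latter.

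The local background solved for these peaks was lower as well. The median local background was 1.62 and 1.48 reads at partly retained regions in the control lists, against 2.16 and 2.00 reads at fully retained regions. In the shCHD7-2 lists it was 1.46 and 1.62 reads, against 1.96 and 2.26 reads. The background seen most often in those lists was 1.40 and 1.62 reads. No input library was among the samples, so the reads of a peak may enter its own background. The part of summit height and width in this background was not tested. On the deposited scale of fold enrichment, which divides the summit by that background, the partly retained medians were 6.30 and 6.14 in control, against 7.45 and 7.22 in the fully retained regions. In the shCHD7-2 lists they were 5.00 and 4.86, against 5.77 and 5.72. The ratios on this scale were 0.846 and 0.851 in control and 0.866 and 0.849 in shCHD7-2, so the partly retained regions stayed lower in each list by a smaller margin.

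Peaks of the partly retained regions were also narrower. In control replicates 1 and 2 their median width was 556 and 529 bp, against 712 and 680 bp in the fully retained and 475 and 437 bp in the unretained regions. In the shCHD7-2 list that held the peak it was 368 bp in replicate 1 and 394 bp in replicate 2, against 511 and 547 bp in the fully retained regions. The means of these medians were 542.5 ± 19.1 bp in control and 381 ± 18.4 bp in shCHD7-2 for the partly retained regions (SD, n = 2 libraries each). For the fully retained regions they were 696 ± 22.6 bp and 529 ± 25.5 bp (SD, n = 2 libraries each). The control medians cover all 2215 partly retained regions, and the shCHD7-2 medians the 837 and 1378 regions that each list held, so these means are given as a description of the lists. Region by region, the shCHD7-2 peak of a partly retained region had a median of 0.678 (replicate 1) and 0.712 (replicate 2) of its mean control width, and that of a fully retained region 0.784 and 0.835.

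**Figure D3:**
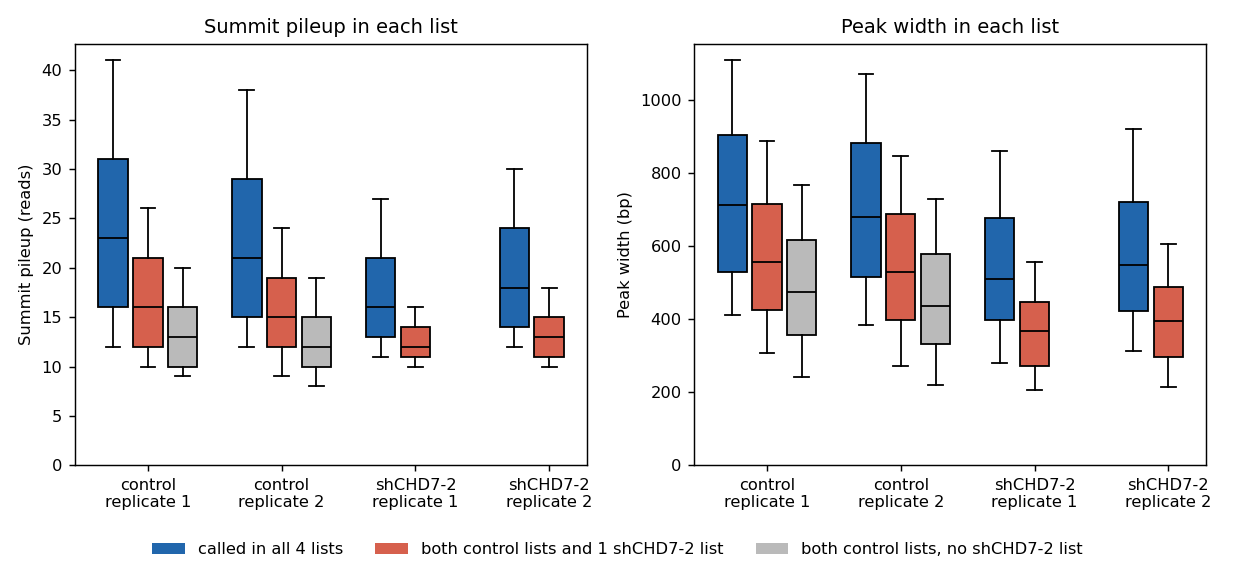
Summit pileup in reads (left) and peak width in bp (right) in each list for the 3 classes of control regions; boxes span the quartiles with the median as a line, and whiskers run from the 10th to the 90th percentile. Partly retained regions (red) lie between the fully retained (blue) and unretained (grey) regions in both control lists, with median widths of 556 and 529 bp, and below the fully retained regions in both shCHD7-2 lists.

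Summits in the shCHD7-2 lists were lower also among regions of like control rank. In the highest stratum the median summit of partly retained regions was 14 reads in replicate 1 and 15.5 reads in replicate 2, against 22 and 26 reads in the fully retained regions. Their mean control pileup there was 33 reads for regions kept by replicate 1 and 31 reads for those kept by replicate 2, against 37.5 reads, so the control summits differed less. In the lowest stratum the partly retained medians were 11 and 12 reads, against 14 and 15 reads, with a mean control pileup of 9.5 reads against 9 reads. Widths followed the same order, with 453 and 498.5 bp against 690 and 731.5 bp in the highest stratum and 351 and 353 bp against 411 and 419 bp in the lowest. Partly retained regions thus had smaller shCHD7-2 peaks than fully retained regions within these strata of control rank. Calls in these same shCHD7-2 lists define both classes. This order is therefore not independent of the choice of regions and is given as a description.

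Many of the peaks that made a region partly retained were close to the limit of calling. In shCHD7-2 replicate 1, 208 of 837 such peaks (24.9%) stood within 2 reads of the lowest called summit, against 213 of 3395 (6.27%) in the fully retained regions. In replicate 2 these were 248 of 1378 (18%) against 141 of 3395 (4.15%). A −log10 q below 2 was met in 16 (1.91%) and 97 (7.04%) of them, against 22 (0.648%) and 58 (1.71%). Most partly retained peaks were thus called with a margin in q, while summits of 8 to 10 reads were several times as frequent as in the fully retained regions. The median −log10 q was 3.9 in replicate 1 and 4.18 in replicate 2, against 6.47 and 7.15 in the fully retained regions.

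At the other end, few of these peaks were among the strong ones of their list. The median percentile rank in the keeping list, the shCHD7-2 list that held the peak, was 35.6 in replicate 1 and 41.3 in replicate 2, against 69.6 and 74.1 in the fully retained regions. A place in the top 10% of the list was reached by 8 (0.956%) and 19 (1.38%) partly retained regions, against 663 (19.5%) and 786 (23.2%) fully retained regions. Summits of 20 reads or more were found in 28 (3.35%) and 93 (6.75%) of them, against 1079 (31.8%) and 1419 (41.8%). A summit above those of both control lists was seen in 124 (14.8%) and 267 (19.4%), close to the 561 (16.5%) and 741 (21.8%) of the fully retained regions. The shCHD7-2 backgrounds were higher than those of the control lists, and their part in these last counts was not tested.

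The regions just inside the rule lay at the q limit of the lists. The lowest −log10 q of a partly retained peak in shCHD7-2 replicate 1 was 1.36, at chr7:158823199-158823844, with 11 reads. In replicate 2 the lowest value was also 1.36, with 8 reads, and several regions shared it. Among them were chr1:45956427-45957223, chr1:63988731-63989472 and chr1:154973224-154974332, the first of them by position. On the control side the lowest values among partly retained regions were 1.44 in replicate 1 and 1.48 in replicate 2. Regions just outside the rule have no value in the list that lacks them, so how far they fell short of the limit cannot be read from the lists.

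The shCHD7-2 peak of a partly retained region mostly lay over the control peaks, though less closely than in the fully retained regions. It covered the summits of both control peaks in 69.4% (replicate 1) and 72.2% (replicate 2) of the partly retained regions, against 86.0% and 88.9%. Its own summit fell inside both control peaks in 84.5% and 84.0% of them, against 92.7% and 93.7%. The median distance from its summit to the control summits was 79.5 bp and 82.8 bp, against 70 bp and 58.5 bp. A narrower peak covers fewer positions, and the part of width in these shares was not tested. Between the control lists, summits of 1 region lay a median of 57 bp apart in the partly retained, 39 bp in the fully retained and 65 bp in the unretained regions. In 15 of the 2215 regions the strongest peaks of the control lists did not overlap each other and were joined through another peak.

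Partly retained regions were spread over all 23 chromosomes analysed, in numbers from 8 on chromosome 22 to 206 on chromosome 1. Their share of the control regions of a chromosome had a median of 26.4%. It was lowest on chromosome 22, with 17.8% (8 of 45 regions, 95% Wilson interval 9.29 to 31.3%), and highest on chromosome 11, with 31.7% (147 of 464, 27.6 to 36.0%). Besides chromosome 11, the intervals of chromosome 6 (20.9%, 17.6 to 24.6%) and chromosome 20 (18.1%, 13.5 to 24.0%) left out the genome-wide share. The remaining intervals included it. No adjustment was made for reading 23 intervals.

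The unretained share varied over a wider range, from 20.4% on chromosome 8 to 73.3% on chromosome 22, and 6 of its intervals lay above and 7 below its genome-wide share of 34.4%. Chromosome 8, which had the lowest unretained share, had a partly retained share of 26.5% (139 of 524), and its fully retained share was 53.1%. Chromosome 22 had the lowest fully retained share, 8.89% (4 of 45). Its partly retained share was also the lowest, but it rested on 8 regions and its interval included the genome-wide 25.9%. Replicate 2 held between 37.5% and 72.7% of the partly retained regions of a chromosome, and no interval left out the 62.2% of all of them. The balance between the shCHD7-2 replicates was thus not seen to depend on the chromosome at this number of regions.

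**Figure D4:**
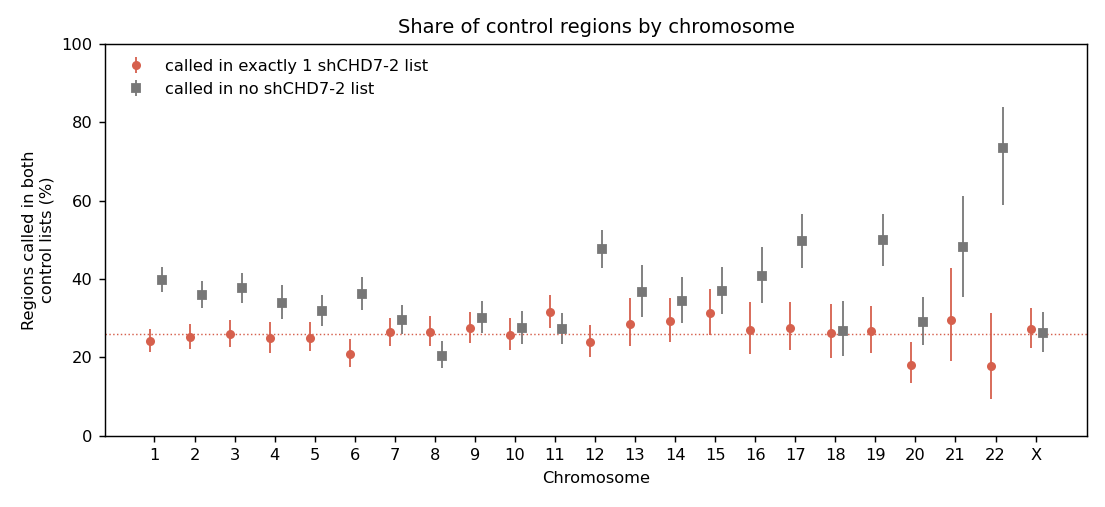
Percent of the regions called in both control lists that were called in exactly 1 shCHD7-2 list (red circles) or in neither (grey squares), by chromosome, with 95% Wilson intervals; the dotted line is the partly retained share of 25.9% over all chromosomes. The red points lie between 17.8% and 31.7%, and the grey points between 20.4% and 73.3%.

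Partly retained regions had one another as nearest neighbours about as often as their share of 25.9% among control regions. The nearest other control region was itself partly retained for 27.2% of them (95% Wilson interval 25.4 to 29.1%), for 25.7% of the fully retained and for 25.4% of the unretained regions. The nearest region of a fully retained region was fully retained in 49.99% of cases, beside a share of 39.7% among control regions, and that of an unretained region was unretained in 47.9%, beside 34.4%. A partly retained region had a fully retained region next to it in 37.2% of cases and an unretained one in 35.6%. The median gap to the nearest control region was 67637 bp for partly retained, 78080 bp for fully retained and 65349 bp for unretained regions. Neighbours also did not share the library that kept them, since a region kept by replicate 1 had a neighbour kept by replicate 1 in 9.32% of cases and one kept by replicate 2 in 18.2%. For regions kept by replicate 2 these shares were 11.2% and 15.9%, near the 9.78% and 16.1% found over all control regions.

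The list without a peak at a partly retained region seldom held one close by. Within 5 kb such a peak was found for 112 of the 2215 regions (5.06%), and within 1 kb for 81 (3.66%). Regions kept by replicate 1 had a peak of replicate 2 within 5 kb in 6.57% of cases (5.08 to 8.46%), beside 4.51% (3.82 to 5.32%) of the unretained regions. Regions kept by replicate 2 had a peak of replicate 1 that near in 4.14% (3.21 to 5.32%), beside 3.26% (2.68 to 3.96%) of the unretained regions. At 5 kb the intervals of the partly retained and unretained regions overlapped for both lists, and they did so at 10 kb. Within 1 kb, regions kept by replicate 1 had a peak of replicate 2 in 5.14% of cases (3.84 to 6.85%). The unretained regions had one in 2.78% (2.25 to 3.44%), so these intervals did not overlap. For regions kept by replicate 2, the intervals at 1 kb overlapped (2.02 to 3.76% beside 1.64 to 2.69%). The median distance to the nearest peak of the missing list was 87.3 kb for regions kept by replicate 1 and 115 kb for those kept by replicate 2, against 122 and 170 kb for unretained regions.

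Single regions show how the extremes of the class looked. Coordinates are hg19, counted from 1. The region kept by shCHD7-2 replicate 1 with the highest control rank was chr8:79716496-79717803, with 68 and 53 reads in control replicates 1 and 2 and 14 reads in shCHD7-2 replicate 1. Its shCHD7-2 peak was 758 bp wide, against 1293 and 1307 bp in the control lists. This was the highest control pileup of any partly retained region, and the shCHD7-2 summit ranked at percentile 57.6 of its list. At chr4:178363060-178363814 the control lists held 47 and 45 reads and shCHD7-2 replicate 1 held 11 reads in a peak of 200 bp, the narrowest width in the list. The nearest peak of shCHD7-2 replicate 2 lay 158 bp from this region, the shortest such distance among the named regions.

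The remaining regions of this set showed the same order of values. The region chr8:111906060-111907268 had 50 and 44 control reads and 11 reads in shCHD7-2 replicate 1. At chr4:39528739-39529835 these values were 32, 34 and 12 reads. At chr18:32820377-32821284 they were 32, 32 and 11 reads. Each of the 5 regions with the highest control ranks thus had a shCHD7-2 summit of 11 to 14 reads, near the class median of 12 reads, while no control summit among them was below 32 reads.

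Among regions kept by shCHD7-2 replicate 2, the highest control rank belonged to chr7:92861124-92862216, with 46 and 48 control reads and 21 reads in shCHD7-2 replicate 2. Its shCHD7-2 summit ranked at percentile 89.2, well above most of the class, and the nearest peak of replicate 1 was 389.558 kb away. The region chr3:157827724-157828598 followed with 44, 43 and 18 reads, at percentile 85.9. These regions were strong in 3 of the 4 lists and absent from shCHD7-2 replicate 1. The region chr12:88535492-88536441 had 42 and 36 control reads and 12 reads in shCHD7-2 replicate 2. At chr13:60737607-60738578 the values were 38, 41 and 10 reads, and the shCHD7-2 summit ranked at percentile 15.1. At chr7:104652872-104653755 they were 51, 45 and 17 reads. The shCHD7-2 summits of these 5 regions spread from 10 to 21 reads, wider than those of the regions kept by replicate 1.

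The regions that ranked highest in the keeping list were of another kind. In shCHD7-2 replicate 1 the first was chr8:139126380-139127142, with 34 reads at percentile 95.8, beside 17 and 9 reads in the control lists. The local background of that peak was 4.56 reads, against the 1.40 reads usual for this list, and its fold enrichment was 6.29. A high summit and a high local background thus went together at this region. The next regions were chr7:102937445-102938335, with 28 and 30 control reads and 21 reads in shCHD7-2 replicate 1, and chr3:156806355-156807183, with 26, 29 and 19 reads. Both ranked at percentile 89.6 or above in each of the 3 lists that held them.

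In shCHD7-2 replicate 2 the first was chrX:15511296-15511906, with 28 reads at percentile 97.2, beside 28 and 23 control reads. Next came chr11:58291466-58292311, with 18, 13 and 24 reads, and its peak was 846 bp wide in shCHD7-2 replicate 2 against 283 and 200 bp in the control lists. The region chr11:96075841-96076883 had 20, 19 and 26 reads. These 3 regions were picked for their rank in shCHD7-2 replicate 2, whose background was higher than those of the control lists, and shCHD7-2 replicate 1 listed no peak at them.

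The lowest control ranks stood at the other limit. For shCHD7-2 replicate 1 they were chr6:152168084-152168476, with 8 and 7 control reads and 12 reads in the shCHD7-2 list, and chr20:57617400-57618038, with 8, 9 and 10 reads. For replicate 2 they were chr18:43684252-43684739, with 6, 7 and 12 reads, and chr7:153928895-153929322, with 7, 7 and 12 reads. The control peaks of these 4 regions were near the lowest that the control lists called. Reads of the shCHD7-2 lists start at 8 over a higher background, and these summits of 10 to 12 reads ranked between percentile 8.55 and 34.2 there.

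**Figure D5:**
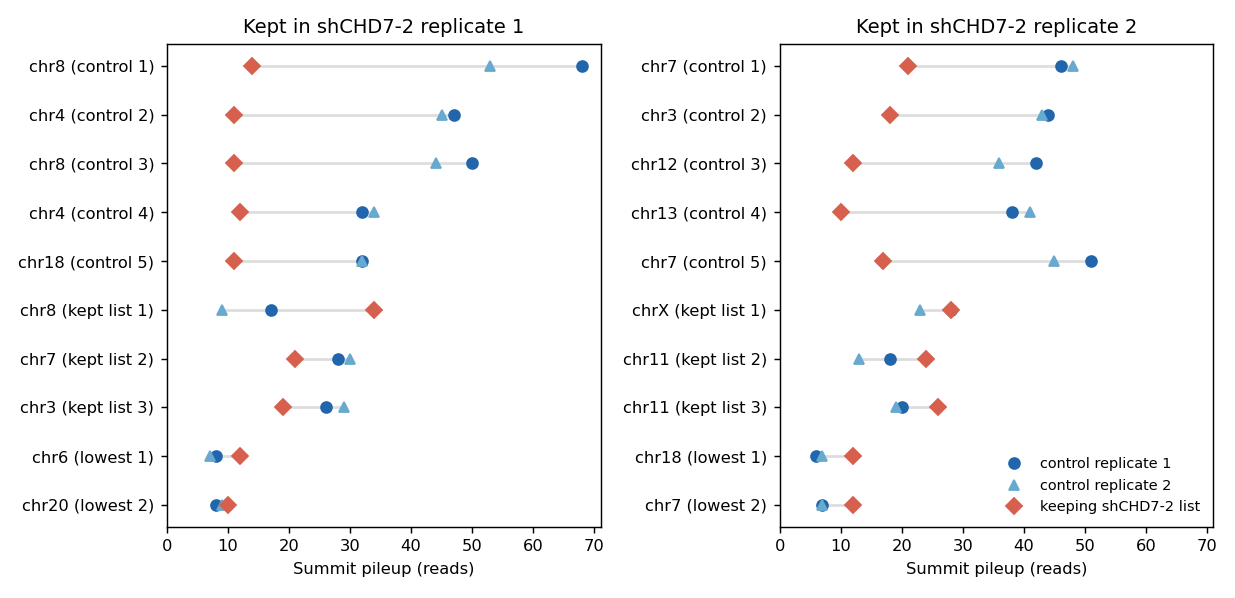
Summit pileup in reads (x axis) at 10 regions kept by shCHD7-2 replicate 1 (left) and 10 kept by replicate 2 (right), named by chromosome and by the rule that picked them: highest control rank, highest rank in the keeping list, or lowest control rank. Blue circles and light blue triangles are control replicates 1 and 2, red diamonds the shCHD7-2 list that held the peak; in the upper 5 rows of each panel the red diamonds lie at 10 to 21 reads, far to the left of the control points, and at the chrX region the diamond covers the circle, both at 28 reads.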

How the data were processed

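ATAC-seq peak lists of 4 libraries were used, 2 control and 2 shCHD7-2, grouped and numbered by their titles. Per the submitters' processing notes, Bowtie2 2.2.5, SAMtools 1.9, MACS2 2.1.2 and deepTools 3.3.0 were used with build hg19. Caller options, removal of duplicates and any shift for the Tn5 cut are not given in the sources used here, and each would change which summits reach the limit. Peaks were called by the authors in each library separately. The deposited score equals 10 times the −log10 q cut to a whole number in at least 99.9% of peaks. The fold enrichment (a ratio) and the −log10 of p and q were taken as the authors deposited them, and the summit offset gave the summit position. The lowest −log10 q was 1.30 to 1.32, so the lists end near q = 0.05. Between 13 and 16 peaks per list on other sequences were left out.

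Reads at the summit (k) and local background (b) were solved from fold enrichment (k + 1) / (b + 1) and the Poisson p value, within 0.001 in −log10 p. Where several pairs of k and b met this limit, the closest was taken, so a solution is not always unique. The procedure was tested on simulated data. Depth is otherwise unknown. PCR reads without molecular identifiers are not independent molecules, so the intervals cover counting error only. Members and lists were chosen with earlier results of these data known. The named regions were, per keeping list, the 5 with the highest mean control rank, the 3 with the highest rank in the keeping list and the 2 with the lowest control rank. The reference tables at hand describe another build, so no gene, promoter or sequence was assigned and no coordinate was converted. Calculations used pandas 2.3.3, SciPy 1.17.1 and NumPy 2.4.6 under Python 3.11.15, and plots used matplotlib 3.10.9.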

Additional observations from a re-analysis of the deposited data

How the results depend on the processing

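Of 84 values under alternative settings, 50 moved within their limit and 34 beyond it. The limit was wide for counts, since 2877 regions against 2215 fell within it. Summit ratios over the library background could not move, because each list has a single background value. Partly retained regions stayed below fully retained ones in control rank, control width and summit in each setting that gave both. In each setting, calls in these same lists chose both classes. This order is therefore not independent of the choice of regions and is given as a description. Under other q limits, overlap rules, list lengths and sequences (ranks and widths were not computed without a control library), the partly retained regions ranked 13.6 to 22.1 percentile points below the fully retained ones and were 80.75 to 149.5 bp narrower in control. With a −log10 q of at least 5, 1319 regions were partly retained (526 in replicate 1, 793 in replicate 2, 23.2% of control regions), of which 493 were among the 2215. The median control rank was then 82.3 in fully and 61.3 in partly retained regions, and the latter ranked at 35.5 in the keeping list. Control widths were 659.5 and 781 bp for partly and fully retained regions. With peaks joined on summits within 200 bp, the share was 29.3%, the control rank of partly retained regions 67, the rank in the keeping list 48.6 and the widths 578 and 659 bp. With lists of equal length, 1318 were partly retained (713 in replicate 2, 24.96%), control ranks were 51.8 and 73.9, and widths 631.5 and 750 bp. Leaving out a control library gave 21.8 to 22.6% and 2718 to 2877 regions. Ranked by fold enrichment, fully retained regions stood at 77.0 and partly retained ones at 59.7 in control. In the keeping list, partly retained regions stood at 45.5 on this ranking. Merged regions were 692 and 854 bp long. The summit ratios on the fold enrichment scale were 0.846, 0.851, 0.866 and 0.849. With 5 strata, the share was 23.8% in the lowest and 13.7% in the highest. A peak of the missing list lay within 1 kb of 3.66% and within 10 kb of 8.26% of the regions. The causes of these moves were not tested beyond the construction of each setting. Leaving out a shCHD7-2 library gave no value, because the rule needs both lists. No paired analysis was possible because the results come from no test. Summits under 6 to 8 reads were not called, so weaker accessibility at a region absent from a list was not detectable at this depth.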
